A study of Rattus norvegicus with 8 samples.

Results

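Serotonin receptor transcripts were measured in the frontal cortex of rats, and 10 receptor genes are described here: Htr1a, Htr1b, Htr1d, Htr2a, Htr2c, Htr3a, Htr4, Htr5b, Htr6 and Htr7. They were chosen by symbol, as all probe sets assigned to exactly one of these genes in the platform's probe annotation, dim ones included. This gave 17 of the 31042 probe sets on the array that are not controls. All rats were male Sprague-Dawley albino animals, an outbred strain, of about 200 g at the start. One group was given olanzapine intraperitoneally at 2 mg/kg/day and the other saline, for 21 days, with 20 animals assigned at random to each. From each group 4 animals were put on arrays, 1 array per animal: saline 14, 15, 17 and 19, and olanzapine 9, 14, 18 and 19. Values of single arrays are listed below in that order. The cortex was dissected and homogenised whole, so fewer cells of a type and less RNA per cell cannot be told apart.

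Serotonin reaches the cortex along fibres from the raphe nuclei of the brainstem and acts there on several receptor families. The 5-HT1 receptors couple to Gi proteins and lower cyclic AMP, the 5-HT2 receptors couple to Gq and release calcium through phospholipase C, and 5-HT4, 5-HT6 and 5-HT7 couple to Gs and raise cyclic AMP. The 5-HT3 receptor alone is an ion channel opened by serotonin. Olanzapine, an antipsychotic, is an antagonist with high affinity for the 5-HT2A, 5-HT2C and 5-HT6 receptors and for dopamine receptors. The comparison of both groups asks which receptor transcripts differ after repeated dosing.

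No probe set of the 10 receptor genes differed between the groups at an adjusted p under 0.05. Receptor probe sets that were not dim on the array belonged to Htr2a, Htr2c and Htr7 only. Htr2c had intensities of 868 ± 97.6 in saline against 839 ± 123 in olanzapine, Htr2a at 260 ± 77.1 and 282 ± 40.4, and Htr7 at 164 ± 26.6 and 124 ± 13.0 (mean ± SD, n = 4 each, brightest probe set of each gene). One further probe set of Htr2a was higher in all 4 olanzapine arrays than in any saline array, at 232 ± 55.9 against 136 ± 39.7, and another, very dim one was lower in all 4. The remaining 7 genes gave dim signals, most of which scattered widely between animals of one group.

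The differences below are on the scale log2(intensity + 63.4), where the added value is the 25th percentile of all deposited values, and they understate the change of dim probe sets. They come from limma, fitted across all 31042 probe sets and adjusted over all of them by Benjamini-Hochberg. A probe set is called dim here where its mean log2 value lay at or below the 40th percentile of all probe sets, 7.47, which corresponds to an intensity of 114. Of the 17 receptor probe sets 5 were above this limit, in 3 of the 10 genes. Detection calls were not used here, and an intensity depends on the probes as well as on the transcript, so levels of different genes are not ranked. In a list of 15 measured genes typical of tissues outside the brain, 3 were above the same limit: Ins1, Fgb and Myh1. The probe set named Myh1, a skeletal muscle myosin gene, was at 17043 to 20763 in saline and 14365 to 16990 in olanzapine, and whether it measures that gene was not tested.

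Over all probe sets, 0 of 31042 had an adjusted p under 0.05 in limma (0% called, smallest adjusted p 0.503). At an unadjusted p under 0.05 there were 2173, or 7.00%, of which 3.91% of all were higher and 3.09% lower in olanzapine. Among the receptors 1 of the 17 probe sets was under that level. Groups did not overlap for 3.80% of all probe sets and for 2 of the 17, both of Htr2a. Simulated data had normal noise, at spreads that limma had drawn towards the trend over all probe sets, and changed probe sets taken from the whole array. There the model called 22% of 1.5-fold changes, 56% of 2-fold and 100% of 3-fold changes. Rates for dim probe sets alone, or at the unmoderated spreads, were not computed. These folds are on the scale with the added value, so they do not hold for ratios of dim intensities, which the scale shrinks.

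**Figure D1:**
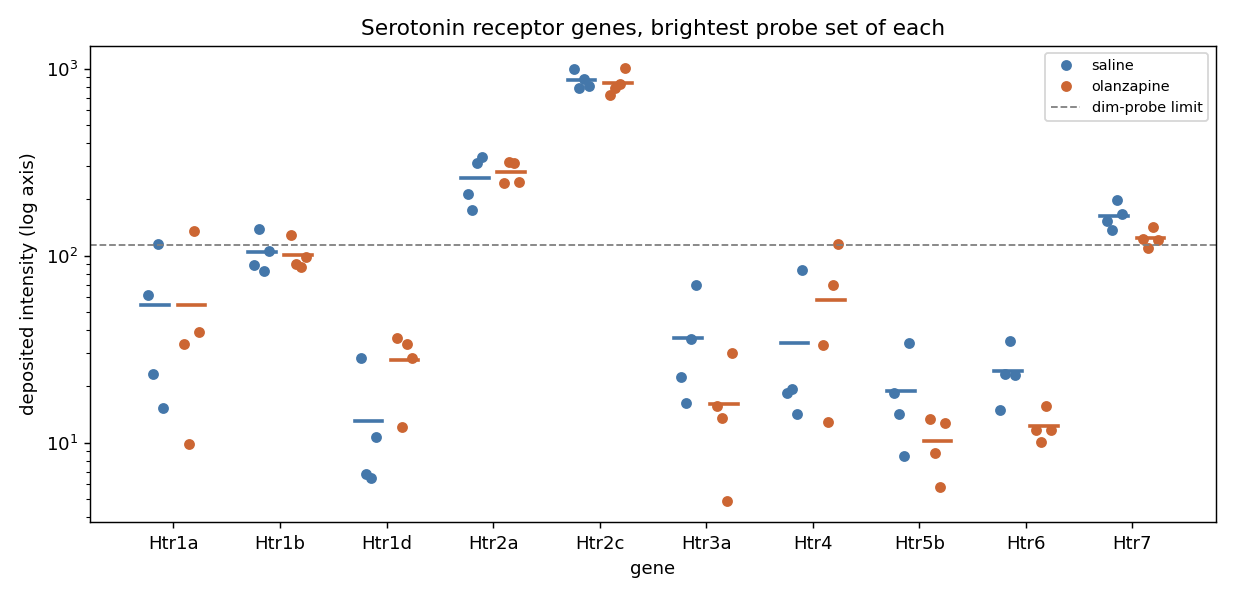
Deposited intensity (log axis) of the brightest probe set of each of the 10 serotonin receptor genes; each point is 1 array, bars are group means (n = 4), and the dashed line is the intensity of 114 that marks dim probe sets. Htr2a and Htr2c lie above the line on all 8 arrays and Htr7 on 7, while most points of the other genes lie below it and spread over a wide range within each group.

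The Gq-coupled receptors include the pair that olanzapine is best known to block. Htr2c encodes the 5-HT2C receptor, which lies on cortical neurons and, at very high level, on choroid plexus epithelium. Its brighter probe set, 1376980_at, read 1000.4, 785, 882 and 805 in saline and 726, 787, 832 and 1013 in olanzapine. The highest and the lowest of all 8 values were both in olanzapine, and the groups overlapped almost fully. The log2 difference was -0.049 (SE 0.12, 95% interval -0.31 to 0.21, limma adjusted p 0.957), an interval that runs from 0.808-fold to 1.16-fold. No other receptor gene had so narrow a bound among the probe sets above the dim limit. The second probe set, 1369860_a_at, read 124, 234, 157 and 166 in saline and 212, 128, 190.1 and 160.2 in olanzapine. Both groups again covered the same range, with a log2 difference of 0.021 (SE 0.22). Its sign turned to -0.032 after quantile normalization, -0.031 after median centring and -0.046 after cyclic loess. Saline 14 was the highest saline array in the brighter probe set and the lowest in the other, so the probe sets did not order the animals alike.

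The choroid plexus was a tissue to check beside Htr2c. Of 11 markers 10 were on the array, and 3 of these were above the dim limit, Kcnj13, Sostdc1 and Enpp2, the last of which oligodendrocytes also express. Ttr, which encodes transthyretin and is among the most abundant transcripts of that tissue, was dim, at 90.0 to 158 in saline and 18.2 to 164 in olanzapine. Summed intensities of the 10 markers were 1470 to 2319 in saline and 1853 to 2353 in olanzapine, and no marker was at 0. In olanzapine 6 of the 10 were higher and 4 lower, with a median log2 difference of 0.043, and 0 passed. The 3 above the limit were all higher, by 0.29 for Kcnj13, 0.58 for Sostdc1 and 0.27 for Enpp2. Among the dim ones Folr1, a folate receptor gene of the epithelium, had groups that did not overlap, at 32.8 ± 23.3 in saline and 8.66 ± 3.03 in olanzapine (n = 4, SD), and a log2 difference of -0.39 (SE 0.16, limma adjusted p 0.686). The part of this tissue in the Htr2c values was not tested.

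For the receptors above the dim limit, RefSeq promoter sequences of the GRCr8 assembly, from 250 bases before the annotated start to 50 after it, were at hand for Htr2c and Htr7, and for 6 of the 10 genes in all. They show how unlike the start regions of both genes are in base composition, at 53.7% G and C in Htr2c (chrX:115452940-115453239, plus strand) and 79.7% in Htr7 (chr1:243172999-243173298, minus strand). Capitals mark the only match to any of 5 motifs searched on both strands, which were TATAAA (the TATA box), GGGCGG (the GC box), CCAAT (the CCAAT box), TGACGTCA (the cyclic AMP response element) and CACGTG (an E-box). None of these overlaps another in either window:
Htr2c: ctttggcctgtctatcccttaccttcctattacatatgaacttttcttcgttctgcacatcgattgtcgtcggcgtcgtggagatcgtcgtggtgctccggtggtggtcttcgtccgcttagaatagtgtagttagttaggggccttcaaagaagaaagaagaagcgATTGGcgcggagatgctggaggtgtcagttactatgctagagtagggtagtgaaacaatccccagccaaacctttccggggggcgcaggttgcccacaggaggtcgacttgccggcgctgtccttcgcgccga
Htr7: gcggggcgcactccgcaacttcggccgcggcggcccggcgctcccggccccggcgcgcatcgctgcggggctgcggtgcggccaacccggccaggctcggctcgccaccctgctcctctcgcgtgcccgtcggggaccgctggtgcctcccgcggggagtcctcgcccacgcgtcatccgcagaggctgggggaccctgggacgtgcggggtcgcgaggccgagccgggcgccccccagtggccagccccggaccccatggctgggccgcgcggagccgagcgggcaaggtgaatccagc
The match in Htr2c is CCAAT read on the opposite strand, and CCAAT is held by 37.5% of the 33469 promoters of this length. The Htr7 window holds none of the 5 motifs. TATAAA was in 14.2% of all promoters, GGGCGG in 33.1%, TGACGTCA in 1.83% and CACGTG in 6.42%. These are matches of letters in a window, and the arrays bear on neither promoter directly.

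Htr2a encodes the 5-HT2A receptor of cortical pyramidal cells and some interneurons, and 4 probe sets on the array are assigned to it. They differed in direction. The brightest, 1369125_at, read 214, 175, 314 and 335 in saline and 245, 319, 314 and 248 in olanzapine. Saline arrays held both the lowest and the highest value, and the log2 difference was 0.12 (SE 0.20, 95% interval -0.32 to 0.56, limma adjusted p 0.934). The next, 1387752_s_at, read 176, 116, 90.7 and 162 in saline and 209, 191, 213 and 314 in olanzapine. Every olanzapine array was above every saline array, with a gap from 176 to 191 and the highest value in olanzapine 19. The log2 difference was 0.57 (SE 0.22, 95% interval 0.082 to 1.06), a ratio of 1.48-fold on that scale. Its unadjusted p in limma was 0.0256 and its adjusted p 0.680, so it did not pass. For comparison, 2.08% of all probe sets separated the groups in this direction. With 1 array left out at a time the difference ran from 0.44 without olanzapine 19 to 0.66 without saline 14. In Affymetrix naming the ending _s_at marks probes that match more than 1 transcript, and which transcripts these were was not analysed here.

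The third Htr2a probe set, 1369124_at, separated the groups the other way. It read 13.1, 8.86, 9.14 and 22.6 in saline and 4.06, 5.98, 4.48 and 3.56 in olanzapine, all far under the dim limit. Each olanzapine array was below each saline array, as for 1.72% of all probe sets in that direction. The log2 difference was -0.17 (SE 0.10, limma adjusted p 0.798). On plain log2 intensities, without the added value, it was -1.49 (unadjusted p 0.0130 and adjusted p 0.661 in limma), so it did not pass there either. The fourth, 1369894_at, was at 1.58 to 7.32 in saline and 1.81 to 2.52 in olanzapine, with a log2 difference of -0.035. Among the 4525 genes with several probe sets, 8 had probe sets that separated the groups in opposite directions, and Htr2a was 1 of them. More probe sets give a gene more chances of this, and dim probe sets were counted too. Among 428 genes with at least 4 probe sets, as Htr2a has, there were 4 such genes, or 0.93%. The mean difference over all probe sets of Htr2a is therefore not given as a level of the gene.

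**Figure D2:**
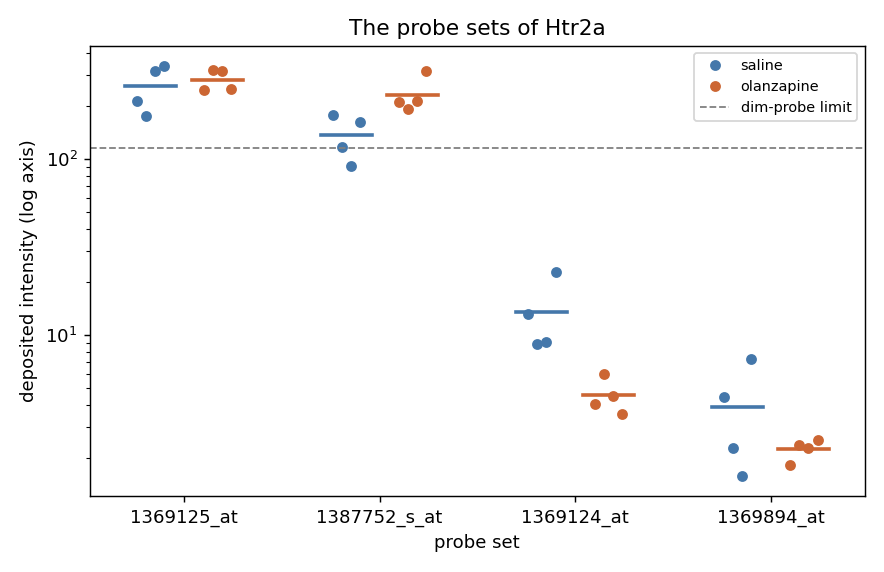
Deposited intensity (log axis) on each array for the 4 probe sets assigned to Htr2a; points are arrays, bars are group means (n = 4) and the dashed line is the dim limit of 114. The olanzapine points of 1387752_s_at lie above all saline points and those of 1369124_at below all saline points, at intensities under 23, while the brightest probe set overlaps.

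Htr7 was the one gene of a Gs-coupled receptor with a probe set above the dim limit. Its product is expressed in thalamus, hypothalamus and cortex, and its transcript is spliced into forms that differ at the end of the protein. All 3 of its probe sets carry the ending _a_at, which marks probes shared by alternative transcripts of 1 gene. The brightest, 1369119_a_at, read 152, 137, 199 and 167 in saline and 123, 110.5, 142 and 121 in olanzapine. Only olanzapine 18, at 142, lay above the lowest saline array, at 137. The log2 difference was -0.27 (SE 0.20, 95% interval -0.71 to 0.16), the limma adjusted p was 0.840, and with 1 array left out it ran from -0.33 to -0.20. The second, 1371290_a_at, read 94.7, 108, 200.2 and 91.0 in saline and 108, 49.9, 74.5 and 129 in olanzapine. Its difference of -0.27 (SE 0.26) was -0.097 without saline 17, the single high array. The dimmest, 1387466_a_at, was at 11.1 to 75.3 in saline and 10.6 to 48.5 in olanzapine, with a difference of -0.16 that was 0.010 without saline 17. The 3 probe sets thus had negative differences with all 8 arrays, none passed, and in the dimmer ones the size depended on saline 17.

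Htr6 encodes a Gs-coupled receptor found mostly in striatum, hippocampus and cortex. Its 1 probe set, 1387688_at, was dim on all 8 arrays, at 14.9, 23.4, 35.2 and 23.1 in saline and 11.7, 10.1, 15.7 and 11.7 in olanzapine. Just 1 olanzapine array, number 18, was above the lowest saline array, number 14. Its log2 difference was -0.20 (SE 0.12, 95% interval -0.46 to 0.055, limma adjusted p 0.798). Without the added value it was -0.92 (unadjusted p 0.141 in limma), so the scale sets the size of this difference.

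Htr4 encodes the third Gs-coupled receptor, and its 2 probe sets disagreed in sign. The probe set with the higher mean, 1391263_at, read 18.5, 19.5, 14.2 and 84.0 in saline and 33.2, 12.9, 69.7 and 115 in olanzapine. Saline 19 stood apart from its group, and both the lowest and the highest of the 8 values were in olanzapine. This gave a log2 difference of 0.29 (SE 0.28, limma adjusted p 0.881), which was 0.51 without saline 19 and 0.082 without olanzapine 19. The other, 1369533_a_at, read 22.5, 6.69, 80.6 and 81.2 in saline and 27.2, 16.1, 12.7 and 13.2 in olanzapine. Here 2 of the saline arrays, 17 and 19, were high and the others lay in the olanzapine range, with a difference of -0.39 (SE 0.23, limma adjusted p 0.798) that ran from -0.59 without saline 15 to -0.24 without saline 19.

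The probe sets of the 3 Gi-coupled receptor genes among the 10 were all dim. Htr1a encodes the 5-HT1A receptor, an autoreceptor of raphe neurons and a receptor of cortical and hippocampal neurons. It read 61.9, 23.3, 116 and 15.3 in saline and 33.5, 9.87, 136 and 39.1 in olanzapine. Saline 17 and olanzapine 18 were each high, the group means were 54.1 and 54.5, and the log2 difference was -0.021 (SE 0.33, 95% interval -0.73 to 0.69, limma adjusted p 0.996). That interval, the widest among the brightest probe sets of the 10 genes, runs from 0.602-fold to 1.61-fold. Without saline 17 the difference was 0.21 and without olanzapine 18 it was -0.31.

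Htr1b encodes the 5-HT1B receptor, which sits on axon terminals and limits transmitter release. Its values were 89.4, 139, 83.1 and 106 in saline and 129, 90.7, 87.1 and 98.1 in olanzapine, just under the dim limit on 6 of the 8 arrays. The groups overlapped, with a log2 difference of -0.023 (SE 0.21, 95% interval -0.49 to 0.44, limma adjusted p 0.993). Htr1d, the gene of a related terminal receptor, read 28.4, 6.77, 6.51 and 10.7 in saline and 36.2, 12.2, 33.5 and 28.3 in olanzapine. Of the olanzapine arrays, 9 and 18 lay above every saline array and 19 just under saline 14, the highest of its group. On average this was a log2 difference of 0.25 (SE 0.14, 95% interval -0.061 to 0.56, limma adjusted p 0.794). It was positive with any 1 array left out, from 0.20 to 0.34, and 1.24 without the added value. With the animal number as a replicate block it was 0.014, a value that rests on the arrays numbered 14 and 19 alone. Those are the only numbers in both groups, so olanzapine 9 and 18 do not enter it.

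Htr3a encodes the subunit that every 5-HT3 channel needs and, in cortex, marks a class of interneurons. Its probe set was dim on all arrays, at 22.5, 16.3, 35.9 and 70.0 in saline and 15.7, 13.6, 4.90 and 30.3 in olanzapine. Saline 19 was the highest array and olanzapine 18 the lowest. The log2 difference of -0.30 (SE 0.18, limma adjusted p 0.801) was -0.15 without saline 19. Of 11 genes listed as markers of interneurons of the Htr3a class, 9 were above the dim limit, with 7 higher and 4 lower in olanzapine and a median difference of 0.066. Vip, a neuropeptide gene of this class, was at 1624 ± 173 in saline and 1888 ± 206 in olanzapine (SD, n = 4). Cck, another of its peptide genes, was at 4624 ± 229 and 4118 ± 189 and Cnr1, the cannabinoid receptor gene, at 2553 ± 319 and 2142 ± 113. Which cells of the homogenate gave these transcripts was not tested. Cnr1 was also on the receptor partner list, Adarb2 on the Htr2c editing list, and Prox1 and Calb2 on the hippocampus and thalamus list. The groups did not overlap for Cck and Cnr1, the difference of Cck was -0.16 as deposited and -0.083 after quantile normalization, and 0 of the 11 passed the adjusted test.

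Htr5b encodes a receptor that rodents have and humans have lost as a working gene. Its values were 18.5, 14.2, 8.46 and 34.0 in saline and 13.4, 8.83, 5.76 and 12.8 in olanzapine. Saline 19 was again the highest array. With all arrays the log2 difference was -0.15 (SE 0.12, limma adjusted p 0.861), and it was -0.067 without saline 19.

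**Figure D3:**
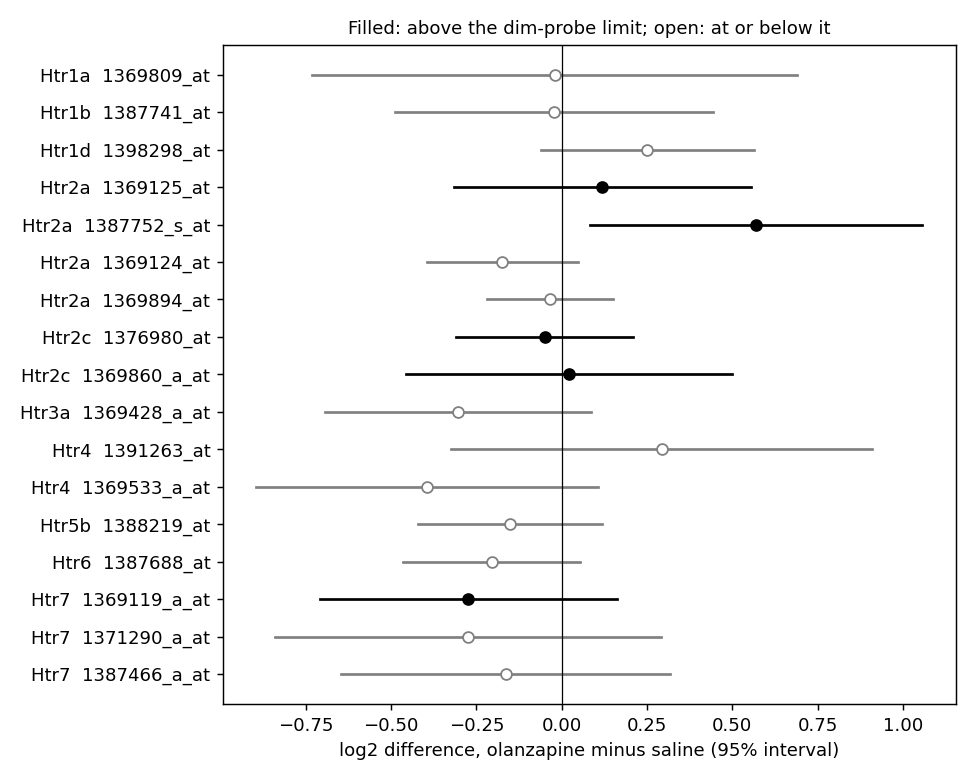
Log2 difference, olanzapine minus saline, with its 95% interval from limma for all 17 probe sets of the 10 receptor genes; filled points are above the dim limit and open points at or below it. Only the interval of 1387752_s_at of Htr2a, from 0.082 to 1.06, leaves out 0, and probe sets of Htr2a and of Htr4 lie on both sides of 0.

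Across the family, the brightest probe set was lower in olanzapine in 7 of the 10 genes and higher in 3, Htr1d, Htr2a and Htr4. By sign alone 47.1% of 14217 genes were lower, each by its brightest probe set. The median difference of the 10 was -0.036, against 0.014 over all genes. Of all 17 probe sets 12 were lower, against 45.7% of all probe sets. The number of lower genes was 5 to 7 with 1 array left out at a time, and 7 after quantile normalization, median centring and cyclic loess. For 5 of the 7, Htr1a, Htr1b, Htr3a, Htr5b and Htr6, the probe set was dim, and for Htr1a, Htr1b and Htr2c the difference was within 0.05 of 0.

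Single arrays stood behind several of these values. Saline 19 was the highest saline array in 7 of the 17 probe sets and the lowest in 3, and saline 17 was the highest in 5 and the lowest in 6. Saline 19 also had the highest 25th percentile of all arrays, 72.6, where saline 14, 15 and 17 had 56.7 to 58.3 and the olanzapine arrays 62.6 to 70.4. Olanzapine 14 was the lowest array of its group in 8 of the 17. The part of this difference between arrays in the receptor values was not tested.

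**Figure D4:**
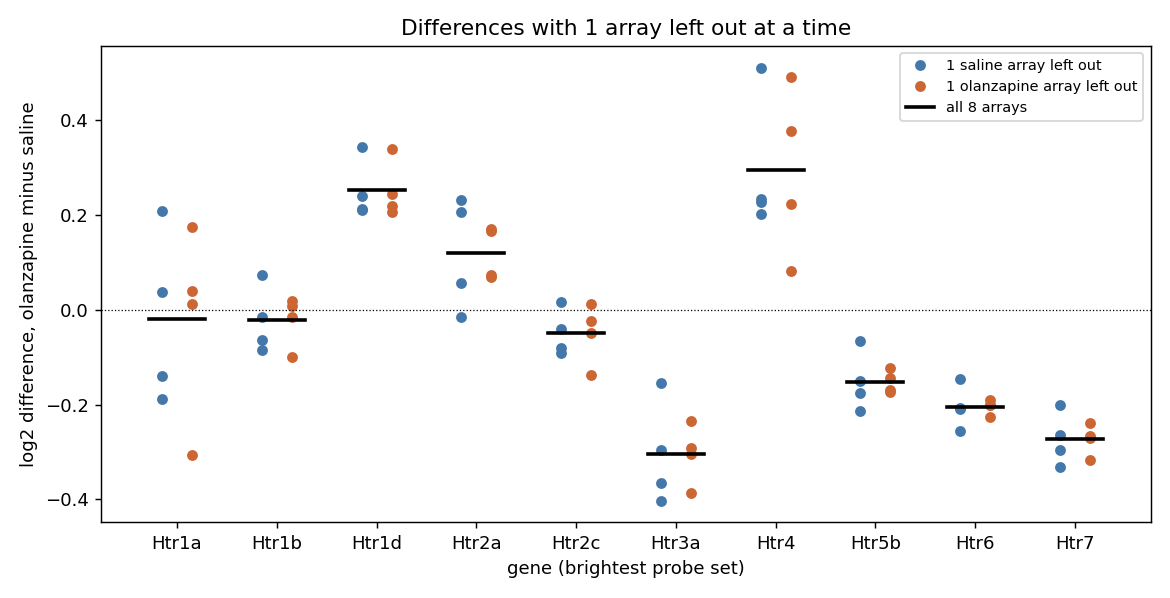
Log2 difference, olanzapine minus saline, of the brightest probe set of each receptor gene with all 8 arrays (black bars) and with 1 saline or 1 olanzapine array left out (points). Points of Htr1a, Htr1b, Htr2a and Htr2c lie on both sides of 0, those of Htr3a, Htr5b, Htr6 and Htr7 stay below it, and those of Htr1d and Htr4 above it.

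A further 4 serotonin receptor genes on the array, Htr1f, Htr2b, Htr3b and Htr5a, lay outside the chosen 10, and 0 of them passed. Htr2b, the third 5-HT2 receptor gene, read 44.5, 91.5, 85.1 and 66.2 in saline and 107, 117, 118 and 101 in olanzapine. Its groups did not overlap, and the log2 difference was 0.38 (SE 0.21, limma adjusted p 0.782). Htr1f, of the Gi-coupled family, was at 73.6 to 301 in saline and 119 to 249 in olanzapine and was the only one of the 4 above the dim limit. Htr5a was at 64.8 to 142 and 26.0 to 125, with a difference of -0.33 (SE 0.27). Htr3b, the partner subunit of Htr3a, was at 10.4 to 62.1 and 9.33 to 59.1.

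Signalling partners of the receptors were described from lists chosen with earlier results of these data known, and none of their genes passed. Of 9 measured genes of the Gq route used by 5-HT2 receptors, 5 were higher and 4 lower, with a median difference of 0.0010. Prkcb, which encodes protein kinase C beta, read 11148, 10833, 9729 and 8372 in saline and 7294, 6862, 7792 and 8224 in olanzapine, a log2 difference of -0.40 (SE 0.11, limma adjusted p 0.602). All olanzapine arrays were below all saline arrays, with saline 19 nearest to them. Plcb3, a phospholipase C gene, was at 399 ± 27.3 in saline and 500.1 ± 34.8 in olanzapine (SD, n = 4), also without overlap. Itpr1, the calcium release channel gene, was at 9712 ± 1155 and 8301 ± 458.

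Of 10 genes of the Gi route of the 5-HT1 receptors, 6 were higher and 4 lower, with a median of 0.012. Gnaz, which encodes the alpha subunit of Gz, was at 4300.2 ± 223 in saline and 3503 ± 228 in olanzapine (SD, n = 4), without overlap and with a limma adjusted p of 0.612. Rgs19, a regulator of Gi signalling, was dim, at 18.9 ± 9.03 and 74.8 ± 50.8. Gs route genes were split 5 and 5, with a median of -0.045, and the protein kinase A gene Prkacb was at 8335 ± 1136 and 6808 ± 660.0. The differences of these bright genes depended on the scaling: as deposited they were -0.40 for Prkcb, -0.29 for Gnaz, -0.22 for Itpr1 and -0.28 for Prkacb, after quantile normalization -0.22, -0.23, -0.026 and -0.13, and after median centring -0.45, -0.34, -0.27 and -0.34.

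Among 8 genes listed as repressors of Htr1a or as members of the enzyme family that edits the Htr2c transcript, 4 were higher and 4 lower. Of these 0 passed. Adar, which encodes an enzyme that edits adenosines in the Htr2c message, was at 980.0 ± 36.8 in saline and 1174 ± 118 in olanzapine (SD, n = 4), without overlap, a log2 difference of 0.24 (SE 0.09). Its relatives on the list were lower, with overlap. Adarb1 was at 6307 ± 1099 and 5751 ± 312, a difference of -0.12 (SE 0.11), and Adarb2 was dim, at 15.7 ± 6.79 and 11.8 ± 5.13. Deaf1, a repressor gene of Htr1a in raphe cells, was at 584 ± 76.7 and 765 ± 146, a difference of 0.35 (SE 0.14). Its action on Htr1a in cortex was not tested. The limma adjusted p was 0.680 for Adar and 0.686 for Deaf1, and editing itself was not analysed here. Cc2d1b, which belongs to a family that binds a silencer of Htr1a, was at 182 ± 74.0 and 106 ± 51.9.

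Genes that bind or traffic the receptors were split 6 and 6, with a median of 0.0038, and S100a10, which encodes a partner of the 5-HT1B and 5-HT4 receptors, was at 438 ± 99.2 and 492 ± 96.4. Ric3, a chaperone gene of 5-HT3 channels, was at 1027 ± 175 and 917 ± 93.5. Of 6 measured genes that make, carry or break down serotonin, 4 were higher and 2 lower, and 0 passed. Slc6a4, the serotonin transporter gene, whose transcript is made in the raphe, was dim, at 8.70 to 32.6 in saline and 20.5 to 82.5 in olanzapine.

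The tissue label was checked against markers. Of 10 measured genes of excitatory cortical neurons 9 were above the dim limit, among them Slc17a7 at 2201 to 2640 in saline and 2198 to 2335 in olanzapine. Striatal markers were summed at 4610 to 5219.9 in saline and 4683 to 5275 in olanzapine, 6 of 9 above the limit, with 4 higher and 5 lower in olanzapine and a median difference of -0.046. The dopamine receptor gene Drd1 was at 213 to 411 in saline and 187 to 398 in olanzapine and Pde10a, a phosphodiesterase gene, at 1323 to 2484 and 1707 to 2478, while Drd2 was dim, at 19.2 to 71.5 and 6.08 to 21.8. Markers of hippocampus and thalamus were split 4 and 4, with summed intensities of 4252 to 5538 and 4709 to 5368. Of 11 meningeal transcripts 10 had positive differences, with a median of 0.52, and none passed. At an unadjusted p under 0.05 in limma 5 were higher and 0 lower, where 3.91% of all probe sets were higher. Groups did not overlap for 3, all higher in olanzapine, against 2.08% of all probe sets. Summed intensities of the 11 were 2741 to 3774 in saline and 3734 to 9398 in olanzapine, where the highest without olanzapine 9 was 5232. Col1a1, a collagen gene, was at 432 ± 43.5 and 677 ± 98.8 (SD, n = 4), a log2 difference of 0.57 that was 0.48 without olanzapine 9. Igf2, a growth factor gene, was at 122 ± 48.4 and 359 ± 185, and none of the 11 was at 0. The part of the meninges in the receptor values, among them those of 1387752_s_at of Htr2a and of Htr2b, was not tested.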

How the data were processed

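Frontal cortex RNA of 8 rats, 4 per group by the titles in the labels, was measured on 1 array each. The deposited values are linear intensities, 1 per probe set, and from the values the authors had scaled each array to a common mean (500.0 on every array after removing the lowest and highest 2%). Which software, background correction and probe summary were used is not stated in the labels, and no detection calls were used. Such scaling leaves differences between arrays that vary with brightness.

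Of 31099 rows 57 were controls and were left out. Names come from the platform annotation of 2016, in which 20826 of 31042 had 1 symbol. Symbols of list genes were then updated by Entrez identifier through RefSeq. The test was limma 3.58.1 in R 4.3.3 (lmFit, eBayes with trend, two-sided, no covariates) on log2(intensity + 63.4), without a filter, because dim receptors belong to the chosen set. Simulated data with normal noise at the spreads moderated by limma, and with 200 changed probe sets, were used to test the model. A gene's main probe set is the one with the highest mean intensity. The genes and lists were chosen with earlier results of these data known. Named list genes were in part among the 3 of their list with the smallest p, but not all of those 3 were named. Others, such as S100a10, Ttr, Kcnj13, Slc17a7, Drd1 and Pde10a, were named for their role or brightness, after their values were seen. Animal numbers 14 and 19 occur in both groups but stand for separate animals, so the main test did not pair the arrays. Correlations of deviations between arrays of the same number were 0.071 and 0.089. Arrays of unlike number were not compared, so whether animals of the same number shared handling was not tested. Alternatives were 3 scalings, 2 added values, a filter, array weights, no trend, the number as a block, the mean over probe sets and each array left out.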

Additional observations from a re-analysis of the deposited data

Results flagged for a closer look

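In the 34 groups of 4 arrays examined, 17 probe sets in 2 groups, 2 held a value that stood far from the other 3. The limit used flags about 1 in 20 groups of normally distributed values. It was applied to linear intensities, which were not checked for that form, so the share due to chance is not known here. In 1391263_at of Htr4, saline 19 was at 84.0, with the other saline arrays at 14.2 to 19.5. In 1371290_a_at of Htr7, saline 17 was at 200.2, with the others at 91.0 to 108. Without these arrays the differences were 0.51 in place of 0.29 for Htr4 and -0.097 in place of -0.27 for Htr7, and neither passed.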

How the results depend on the processing

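No probe set on the array passed the adjusted test in limma under any alternative run (count 0 in each), and at an unadjusted p under 0.05 the count was 2173 with all arrays, 1549 above the 40th percentile, and from 1698 without olanzapine 9 to 3029 without saline 19. With the animal number as a replicate block that count was 1566 and 0 passed the adjusted test. In that run the group differences rest on the arrays numbered 14 and 19 alone, the only numbers in both groups. The number of receptor genes lower in olanzapine was 7, 6 with array weights and 5 to 7 with 1 array left out. Among the other alternatives, the filter and the fit without a trend cannot change a difference, so their values could not turn. Of 145 receptor values under the other alternatives, these included, 138 kept their sign. Those that turned were 1369860_a_at of Htr2c (-0.032 after quantile normalization, -0.031 after median centring, -0.046 after cyclic loess, -0.0050 with the replicate block), Htr1b (0.015 with array weights), 1387466_a_at of Htr7 (0.032 with the replicate block) and Htr4 (-0.051 as the mean over its probe sets). With the replicate block Htr3b was 0.38, Slc6a4 -0.11, Slc17a7 0.0034 and Sostdc1 -0.0088, also turned, and 1387752_s_at of Htr2a was 0.42. The block values thus come from fewer arrays, and the cause of the other turns was not tested. With 1 array left out, signs also turned in Htr1a (-0.31 to 0.21), Htr1b (-0.10 to 0.072), Htr1f (-0.36 to 0.11), 1369125_at of Htr2a (-0.015 to 0.23), both probe sets of Htr2c (-0.14 to 0.016 and -0.078 to 0.14), Htr3b (-0.22 to 0.089), 1387466_a_at of Htr7 (-0.29 to 0.010), Slc17a7 (-0.085 to 0.00035), Drd1 (-0.29 to 0.013) and Pde10a (-0.083 to 0.21). The filter removes the dim probe sets of 7 receptor genes, so it gives no count over the 10. With 4 arrays a group the precision is limited by their number, and for dim probe sets by signal near the low end of the array.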
